A study of Mus musculus with 12 samples.

Results

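The genes described here are the 9 members of the Trim5, Trim12, Trim30 and Trim34 families that lie together on mouse chromosome 7: Trim34a, Trim5, Trim12a, Trim34b, Trim12c, Trim30b, Trim30c, Trim30a and Trim30d. They were taken by name from a table of 53465 genes, and 8 of them passed a filter on low counts that left 16101 genes for testing. Trim30c did not pass it. The members were chosen by their values in knockout against floxed hearts, so every difference between the genotypes given below is a description without a test, whereas the responses to doxorubicin were tested.

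RNA was sequenced from the hearts of 12 male mice, 3 in each of 4 groups, with 1 library per mouse. In A17fl/fl mice Adam17 is flanked by loxP sites, on the C57BL/6J background, and their A17α-MHCKO littermates also carry Cre under the α-MHC promoter, which removes exon 2 of Adam17 in cardiomyocytes while other cells keep it. The background strain of the Cre line is not given in the sources used here. From 8 weeks of age, mice of both genotypes received 4 intraperitoneal doses of the anthracycline doxorubicin (DOX), each 5 mg/kg and together 20 mg/kg, or the same volume of normal saline (NS), and were killed 4 weeks after the last injection. The paper describes left ventricular tissue and the labels say heart. Such bulk tissue holds many cell types, and fewer cells of a type cannot be told apart from less RNA per cell.

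TRIM proteins share a RING domain, a B-box and a coiled coil, and the products of this locus mostly end in a SPRY domain. Primate TRIM5 binds the capsids of incoming retroviruses and blocks them, and mice carry several related copies, Trim5, Trim12a and Trim12c, beside the rodent Trim30 family. Many genes of the locus respond to interferon, and Trim30a restrains signalling from Toll-like receptors to NF-κB through the adaptors TAB2 and TAB3.

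In GENCODE M21 the 9 genes fill 263.4 kb, chr7:104244457-104507849 of GRCm38. Trim34a and Trim34b are on the plus strand and the other members on the minus strand. From the proximal end the order is Trim34a (ENSMUSG00000056144), Trim5 (ENSMUSG00000060441), Trim12a (ENSMUSG00000066258), Trim34b (ENSMUSG00000090215), Trim12c (ENSMUSG00000057143), Trim30b (ENSMUSG00000052749), Trim30c (ENSMUSG00000078616), Trim30a (ENSMUSG00000030921) and Trim30d (ENSMUSG00000057596). Trim34b, at chr7:104329471-104336909, lies directly between Trim12a, at chr7:104299894-104315466, and Trim12c, at chr7:104338754-104353362.

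The promoters are shown because the levels of copies with near-identical promoters are set side by side later. All 9 genes matched RefSeq promoter windows of GRCm38.p6, 10 windows in all since Trim30a has a pair of starts. The letters GAAANNGAAA, the core of the interferon response element, were searched on both strands. They were present in 7 of the 10 windows, belonging to 6 of the 9 genes, and in 3.44% of all 32851 RefSeq promoter windows of the same length. Each line gives 60 bases on the gene's own strand, 5′ to 3′, and capitals mark a match, here always in the reverse orientation. Trim34b, Trim30b and Trim30c had no match, and their last 60 bases before the start are shown.
Trim34a: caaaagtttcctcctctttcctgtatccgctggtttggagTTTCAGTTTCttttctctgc
Trim34b: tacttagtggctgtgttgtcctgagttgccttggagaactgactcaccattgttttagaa
Trim5: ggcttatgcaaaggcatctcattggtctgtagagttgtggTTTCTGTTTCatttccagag
Trim12a: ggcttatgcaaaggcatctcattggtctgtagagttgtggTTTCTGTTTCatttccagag
Trim12c: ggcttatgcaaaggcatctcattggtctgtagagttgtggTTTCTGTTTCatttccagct
Trim30a, distal start: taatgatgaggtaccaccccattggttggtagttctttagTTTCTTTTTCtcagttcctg
Trim30a, proximal start: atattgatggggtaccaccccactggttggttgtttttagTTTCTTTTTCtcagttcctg
Trim30d: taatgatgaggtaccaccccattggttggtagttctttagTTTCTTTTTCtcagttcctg
Trim30b: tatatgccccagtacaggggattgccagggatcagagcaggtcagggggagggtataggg
Trim30c: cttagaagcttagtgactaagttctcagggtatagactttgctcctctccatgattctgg

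These windows are at chr7:104244427-104244486 for Trim34a, chr7:104329411-104329470 for Trim34b, chr7:104288136-104288195 for Trim5, chr7:104315466-104315525 for Trim12a and chr7:104353359-104353418 for Trim12c. Those of Trim30a are at chr7:104465210-104465269 and chr7:104446104-104446163, and the others at chr7:104507871-104507930 for Trim30d, chr7:104358647-104358706 for Trim30b and chr7:104400779-104400838 for Trim30c. The Trim5 and Trim12a windows differed at 0 of 60 bases, and their promoters shared an unbroken run of 241 bases. Trim12c differed from both at 2 of 60 bases, and the longest run it shared with either was 71 bases. Trim30d and the distal start of Trim30a differed at 0 of 60 bases and shared a run of 118 bases. The longest run shared by the Trim34a and Trim34b promoters was 11 bases.

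The libraries held between 15950717 and 21725076 counted fragments, with a median of 16413855. Adam17 was lower in the 6 knockout libraries, at 27.9 to 36.8 CPM (counts scaled to a common library size by TMM), than in the 6 floxed libraries, at 43.6 to 70.9, without overlap. Its count covers the whole gene in all cells of the tissue. Replicate 1 of A17fl/fl + NS stood apart from all the others. Its first principal component score was -120.2 against -12.91 to 28.44, and the summed CPM of 8 ventricular cardiomyocyte markers was 17930 against 27890 to 44880, while 6 fibroblast markers summed to 8544 against 1263 to 2791. The 6 neutrophil markers summed to 2225 CPM there against 5.206 to 65.96, and the 12 macrophage markers to 3255 against 792.5 to 1185. For several fold changes the value without this library is also given. The p-values, the counts of other gene lists and most correlations are given with it only.

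Per transcript length, in the deposited FPKM, Trim30a had the highest level of the cluster, 4.37 ± 1.41 (SD, n = 12 libraries). Trim12c followed with 2.38 ± 0.514, Trim34a with 2.06 ± 0.436 and Trim12a with 1.45 ± 0.467. Lower were Trim30d with 0.848 ± 0.327, Trim5 with 0.550 ± 0.182 and Trim34b with 0.423 ± 0.309. Trim30c had 0.173 ± 0.136 and Trim30b 0.105 ± 0.264. In this order Trim30a, Trim34a and Trim12a lay above their next lower neighbour by more than the larger SD. The steps from Trim12c to Trim34a, and from Trim30d down to Trim30b, were each smaller than that. The spread of Trim34b is mostly that between the genotypes, and that of Trim30b rests mostly on 1 library.

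**Figure D1:**
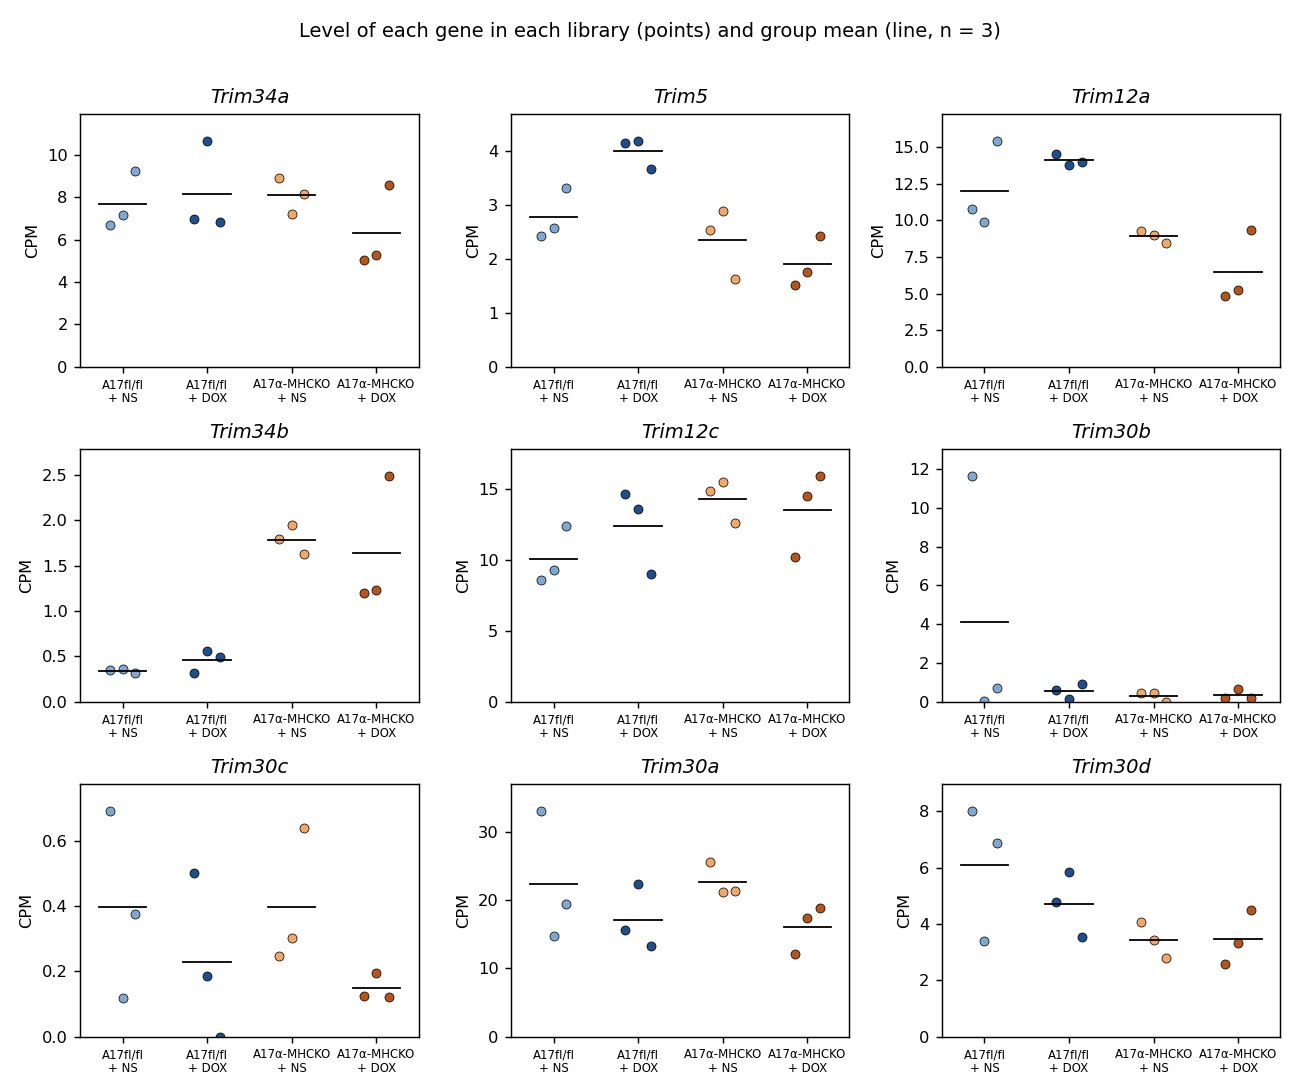
Level of each of the 9 genes in every library, as TMM-scaled CPM on linear axes that start at 0 and differ between panels; points are libraries, lines are means of the 3 libraries of a group, and panels follow the order on the chromosome. In the Trim34b panel the knockout libraries lie at 1.20 to 2.49 CPM and the floxed libraries at 0.313 to 0.554, and in the Trim30b panel 1 floxed library lies at 11.7 CPM.

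Trim34b was higher in knockout hearts after both treatments. After normal saline its level was 0.346, 0.359 and 0.313 CPM in A17fl/fl mice and 1.79, 1.94 and 1.63 CPM in A17α-MHCKO mice. After doxorubicin it was 0.314, 0.554 and 0.497 CPM in A17fl/fl mice and 1.20, 1.23 and 2.49 CPM in A17α-MHCKO mice. All 6 knockout libraries were above all 6 floxed libraries. The floxed values rest on 5 to 9 fragments per library and the knockout values on 19 to 45. Means were 1.71 ± 0.483 CPM in knockout and 0.397 ± 0.103 CPM in floxed libraries (SD, n = 6 each), a ratio of 4.31. The log2 fold change was 2.10 (SE 0.28) over both treatments, 2.37 (SE 0.40) after saline and 1.83 (SE 0.39) after doxorubicin. Leaving out any 1 library gave 1.89 to 2.19.

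Its paralog Trim34a, whose human counterpart acts together with TRIM5 against some retroviral capsids, did not share this difference. Its levels were 6.70 to 9.21 CPM in A17fl/fl + NS, 6.84 to 10.7 in A17fl/fl + DOX, 7.21 to 8.89 in A17α-MHCKO + NS and 5.04 to 8.56 in A17α-MHCKO + DOX. The genotypes overlapped, and the log2 fold change was -0.15 (SE 0.18), or -0.29 to -0.03 with any 1 library left out. Counts of the 2 genes in the same library do not depend on scaling, and the Trim34b to Trim34a ratio was 0.0340 to 0.0727 in the floxed and 0.200 to 0.291 in the knockout libraries, again without overlap. Of the 75-base stretches in Trim34b transcripts of GENCODE M21, 42.5% also occur in another member, as do 29.5% of those in Trim34a. For 100-base stretches the shares are 30.5% and 21%. The read length is not given in the sources used here, so how fragments were divided between the pair is uncertain.

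Trim12a was lower in knockout hearts after both treatments, and Trim5 after doxorubicin. For neither gene did the interaction of genotype and doxorubicin, given below, pass the adjusted test. Trim12a was at 10.7, 9.87 and 15.4 CPM in A17fl/fl + NS and at 14.5, 13.8 and 14.0 CPM in A17fl/fl + DOX. In A17α-MHCKO mice it was at 9.26, 9.03 and 8.43 CPM after saline and at 4.85, 5.26 and 9.35 CPM after doxorubicin. The highest knockout library stayed below the lowest floxed library, by a small margin. Means were 7.70 ± 2.08 CPM in knockout and 13.1 ± 2.22 CPM in floxed libraries (SD, n = 6 each), a ratio of 0.590 and a log2 fold change of -0.77 (SE 0.18). The log2 fold change was -0.43 (SE 0.25) after saline and -1.12 (SE 0.25) after doxorubicin. Without replicate 3 of A17fl/fl + NS, the highest of its group, that after saline was -0.21.

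Trim5 was at 2.42, 2.57 and 3.32 CPM in A17fl/fl + NS and at 4.15, 4.19 and 3.67 CPM in A17fl/fl + DOX. In knockout mice it was at 2.53, 2.89 and 1.63 CPM after saline and at 1.51, 1.75 and 2.43 CPM after doxorubicin. The genotypes overlapped after saline and were apart after doxorubicin, where the lowest floxed library lay above the highest knockout library. Log2 fold changes of knockout against floxed were -0.23 (SE 0.28) after saline, -1.07 (SE 0.28) after doxorubicin and -0.65 (SE 0.20) over both. The value after saline was -0.08 without replicate 3 of A17fl/fl + NS, -0.02 without replicate 3 of A17α-MHCKO + NS and -0.40 without replicate 2 of A17α-MHCKO + NS.

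Trim12c, whose product promotes interferon and NF-κB signalling, did not follow Trim12a and Trim5, although the promoter windows printed above are nearly the same. It was at 8.54, 9.27 and 12.3 CPM in A17fl/fl + NS and at 14.8, 15.5 and 12.6 CPM in A17α-MHCKO + NS, where the knockout libraries were higher without overlap. After doxorubicin it was at 14.6, 13.5 and 9.01 CPM in A17fl/fl and at 10.2, 14.5 and 15.9 CPM in A17α-MHCKO mice, which overlapped. The log2 fold change was 0.51 (SE 0.23) after saline and 0.13 (SE 0.23) after doxorubicin, the latter -0.06 to 0.29 with any 1 library left out.

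Ratios within a library set the copies against each other. Trim12a to Trim12c was 0.991 to 1.55 in floxed and 0.363 to 0.671 in knockout libraries, and Trim5 to Trim12c was 0.269 to 0.407 in floxed and 0.121 to 0.187 in knockout libraries. Both ratios were lower in all 6 knockout libraries than in any floxed library. They share Trim12c as the divisor, which was itself higher in knockout libraries after saline. The share of other gene pairs apart in this way was not counted, here or for Trim34b to Trim34a. Nothing is read from these separations. Trim5 to Trim12a overlapped, with 0.215 to 0.304 in floxed and 0.193 to 0.333 in knockout libraries. Of the 75-base stretches of their transcripts, 16.8% for Trim5, 15.2% for Trim12c and 4.46% for Trim12a occur in another member, and of the 100-base stretches 9.73%, 8.03% and 2.62%, so fragments could be divided between these copies as well.

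**Figure D2:**
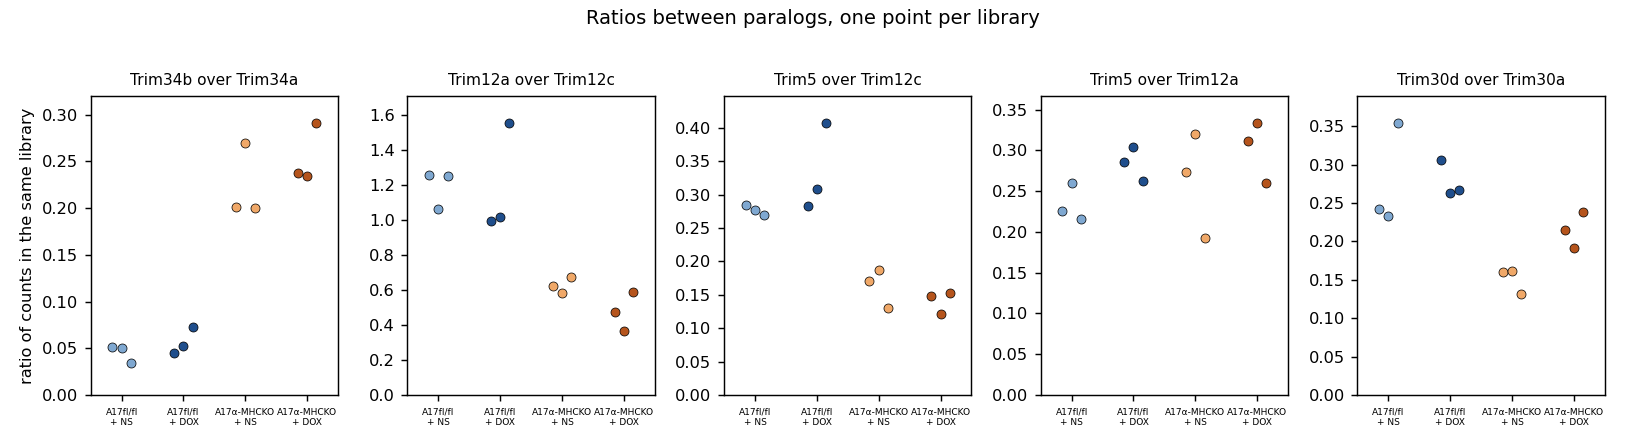
Ratio of the fragment counts of a pair of paralogs in the same library, 1 point per library by group, on linear axes that start at 0. Trim34b over Trim34a is higher, and Trim12a over Trim12c and Trim5 over Trim12c are lower, in all knockout libraries than in any floxed library, while Trim5 over Trim12a overlaps.

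The levels of the Trim30 genes overlapped between the genotypes. Trim30a was at 33.1, 14.7 and 19.5 CPM in A17fl/fl + NS and at 15.6, 22.3 and 13.3 CPM in A17fl/fl + DOX. In knockout mice it was at 25.6, 21.1 and 21.3 CPM after saline and at 12.02, 17.3 and 18.9 CPM after doxorubicin. The genotypes overlapped in both treatments, with a log2 fold change of -0.04 (SE 0.21) over both, or 0.16 without replicate 1 of A17fl/fl + NS, which held the highest value.

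Trim30d was at 3.41 to 8.02 CPM in the floxed libraries, with a median of 5.31, and at 2.58 to 4.49 CPM in the knockout libraries, with a median of 3.36. The ranges overlapped, and the log2 fold change was -0.64 (SE 0.24), or -0.52 without replicate 1 of A17fl/fl + NS. Its ratio to Trim30a in the same library was 0.233 to 0.354 in floxed and 0.131 to 0.238 in knockout libraries, which touch at their edges. A processed pseudogene on the same strand, Gm16464, overlaps Trim30d, so some of its fragments may be uncertain.

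Trim30b and Trim30c were close to the limit of detection. Trim30b had 202 fragments, 11.7 CPM, in replicate 1 of A17fl/fl + NS and 0 to 15 fragments in each of the other 11 libraries. The log2 fold change of knockout against floxed was -2.25 (SE 1.03) with that library and -0.53 without it. This is the library with the high neutrophil and macrophage sums, and their part in the Trim30b value was not tested. Trim30c had 0 to 12 fragments per library in floxed and 2 to 11 in knockout mice. The deposited FPKM imply longer genes than the exons of GENCODE M21 for 8 of the 9 members, most for Trim30b, at 13082 against 7527 bases, and an equal length for Trim30c, at 1716 bases. Whether counting on another annotation changed these values was not tested.

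Of the 8 tested members, 2 did not overlap between the 6 knockout and 6 floxed libraries, Trim34b and Trim12a, where 0.335% of all 16101 tested genes did not overlap. This share belongs to the contrast that chose the members, so nothing is read from it. Those apart after saline were 3 of 8, Trim34b, Trim12c and Trim12a, against 10.9% of all genes. After doxorubicin they were 3 of 8, Trim34b, Trim12a and Trim5, against 14.1%. An absolute log2 fold change over 1 was found for 2 of 8, Trim34b and Trim30b, against 2.2% of all genes. Without replicate 1 of A17fl/fl + NS, Trim34b alone remained over 1. The count after saline was 5 without replicate 2 of A17fl/fl + NS, and the count after doxorubicin was 5 without replicate 3 of A17α-MHCKO + DOX. The median log2 fold change of the 8 members was -0.40 against -0.01 for all tested genes, with 2 positive and 6 negative. Trim5 overlapped over both treatments, at 1.51 to 2.89 CPM in knockout and 2.42 to 4.19 CPM in floxed libraries.

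**Figure D3:**
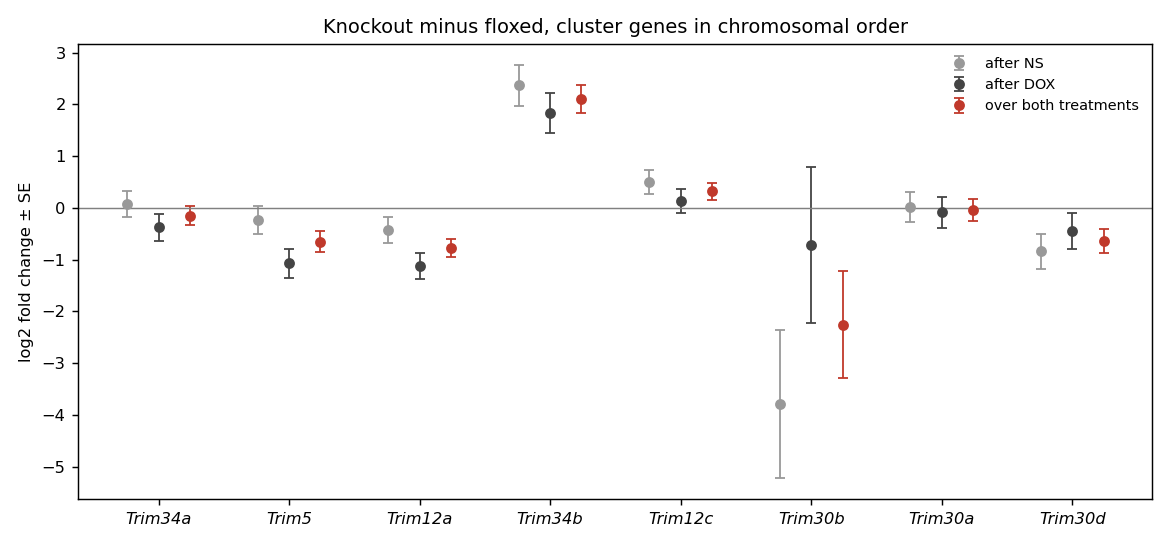
Log2 fold change of knockout against floxed with its SE for the 8 tested genes in chromosomal order, after saline (light grey), after doxorubicin (dark grey) and over both treatments (red). Trim34b, at 2.10 over both treatments, stands between Trim12a at -0.77 and Trim12c at 0.32, and the bars of Trim30b are the widest of the 8 genes.

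The neighbours of the cluster were compared in the same way, and none of them was chosen by its value. The 10 nearest tested genes on each side and Gm16464 inside the cluster, 21 genes with no member among them, all overlapped between the genotypes. Trim6, 9.3 kb proximal to Trim34a, had 0.907 CPM in knockout and 0.835 CPM in floxed libraries. Within 2 Mb of the cluster 0 of 38 tested genes other than the members were without overlap, and within 5 Mb 6 of 112 were (5.36%). Within 10 Mb it was the same 6 genes, of 178 (3.37%). Beyond 10 Mb on the same chromosome the count was 4 of 1068 (0.375%).

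The 6 genes within 5 Mb lay 3.57 to 4.12 Mb proximal to the cluster and are named after their values were seen. Pold3, a subunit of DNA polymerase delta, had 138 to 221 fragments per floxed and 1344 to 3593 per knockout library. P4ha3, a collagen prolyl hydroxylase subunit, had 1 to 91 per floxed and 1256 to 2926 per knockout library, and Gm35082 had 0 in every floxed and 9 to 30 in every knockout library. All these were higher in knockout hearts. Lipt2, Pgm2l1 and Rab6a were lower there, with log2 fold changes of -0.90, -1.25 and -0.30. Whether these differences share a source with those of the cluster was not tested.

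**Figure D4:**
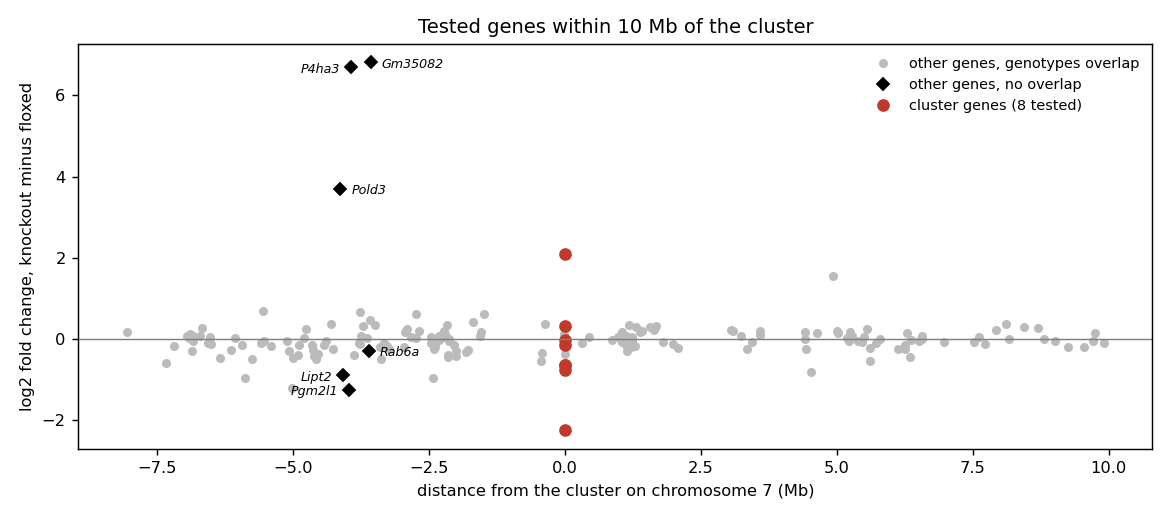
Log2 fold change of knockout against floxed (vertical axis) for tested genes within 10 Mb of the cluster, by distance in Mb (horizontal axis, 0 for genes inside the cluster); red points are the 8 tested cluster genes, black diamonds other genes whose genotypes do not overlap and grey points other genes. The 6 diamonds lie 3.57 to 4.12 Mb to the proximal side, the genes in between are grey, and the value of Gm35082 is set by the prior count because it is at 0 in every floxed library.

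The genes with the most similar profile over the 12 libraries were found by Pearson correlation of log2 CPM, as a description, since the libraries share their genotype and treatment groups. For Trim34b they were Gm35082 (r = 0.926), Pold3 (r = 0.917) and P4ha3 (r = 0.917), which share its split by genotype and its chromosome. For Trim12a the most alike was Cep250 (r = 0.879), and for Trim12c Btbd2 (r = 0.951), followed by the T cell genes Ccl5 (r = 0.892) and Gimap4 (r = 0.880). For Trim30a it was Zc3hav1 (r = 0.930), an antiviral zinc finger gene, for Trim30d Csnk1d (r = 0.914) and for Trim34a Crkl (r = 0.827). For Trim5 it was Gm43268 (r = 0.853). For Trim30b it was Cdk9 (r = 0.960, or 0.875 without replicate 1 of A17fl/fl + NS).

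For doxorubicin, 0 of the 8 members were called at an adjusted p under 0.05 by edgeR's quasi-likelihood test. This held over both genotypes, in either genotype and in the interaction. The share of all tested genes called was 0% in each of these comparisons. At an unadjusted p under 0.05 there were also 0 of 8 members, against 10.7% of all genes (1717) over both genotypes, 10.7% (1721) in A17fl/fl mice, 6.42% (1033) in A17α-MHCKO mice and 5.99% (965) in the interaction. DESeq2 called 0 members and 176, 151, 41 and 21 of all genes at an adjusted p under 0.05 in the same order. At an unadjusted p under 0.05 it called 1, 1, 0 and 0 members, against 1912, 1816, 1136 and 1032 of all 16101 genes. Without replicate 2 of A17fl/fl + NS, edgeR called 73 of all genes over both genotypes, 391 in A17fl/fl mice and 81 in the interaction, with 0 members among them. The median log2 fold change of the 8 members was -0.12 over both genotypes (all genes -0.03), 0.16 in A17fl/fl mice (all genes -0.04) and -0.22 in A17α-MHCKO mice (all genes 0.00).

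Trim30a came nearest over both genotypes. From the values above, its mean was 16.6 CPM after doxorubicin and 22.5 CPM after saline, a log2 fold change of -0.44 (SE 0.21, 95% interval -0.90 to 0.01). The adjusted p of edgeR's quasi-likelihood test was 0.475, and an exact two-sided permutation test within genotypes gave p = 0.085, where 0.005 was the smallest possible. In A17α-MHCKO mice all 3 doxorubicin libraries were below all 3 saline libraries, with an adjusted p of 0.824 by edgeR. The share of all tested genes apart in this way was not counted, so nothing is read from the separation. Without replicate 1 of A17fl/fl + NS the change over both genotypes was -0.25.

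For Trim5 the direction differed between the genotypes. In A17fl/fl mice all 3 doxorubicin libraries were above all 3 saline libraries, with a log2 fold change of 0.53 (SE 0.28) and an adjusted p of 0.512 by edgeR. Here too the share of all genes apart in this way was not counted, so nothing is read from the separation. In A17α-MHCKO mice it was -0.31 (SE 0.28). The interaction was -0.84 (SE 0.39, 95% interval -1.70 to 0.02), with an unadjusted p of 0.0559 and an adjusted p of 0.832 by edgeR's quasi-likelihood test.

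Trim12a had the same signs, 0.23 (SE 0.25) in A17fl/fl and -0.46 (SE 0.25) in A17α-MHCKO mice. Its interaction was -0.69 (SE 0.35), with an unadjusted p of 0.076 and an adjusted p of 0.844 by edgeR. These differences between the genotypes did not pass the test. In the interaction 6 of 8 members were negative, with a median of -0.41 against 0.06 for all tested genes. Of the others, Trim34b had -0.54 (SE 0.55), Trim34a -0.44 (SE 0.36), Trim12c -0.38 (SE 0.33) and Trim30a -0.10 (SE 0.42). Trim30d had 0.39 (SE 0.48) and Trim30b 3.07 (SE 2.09). Without replicate 1 of A17fl/fl + NS the interaction was -0.49 for Trim30a, 0.15 for Trim30d and -0.38 for Trim30b.

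**Figure D5:**
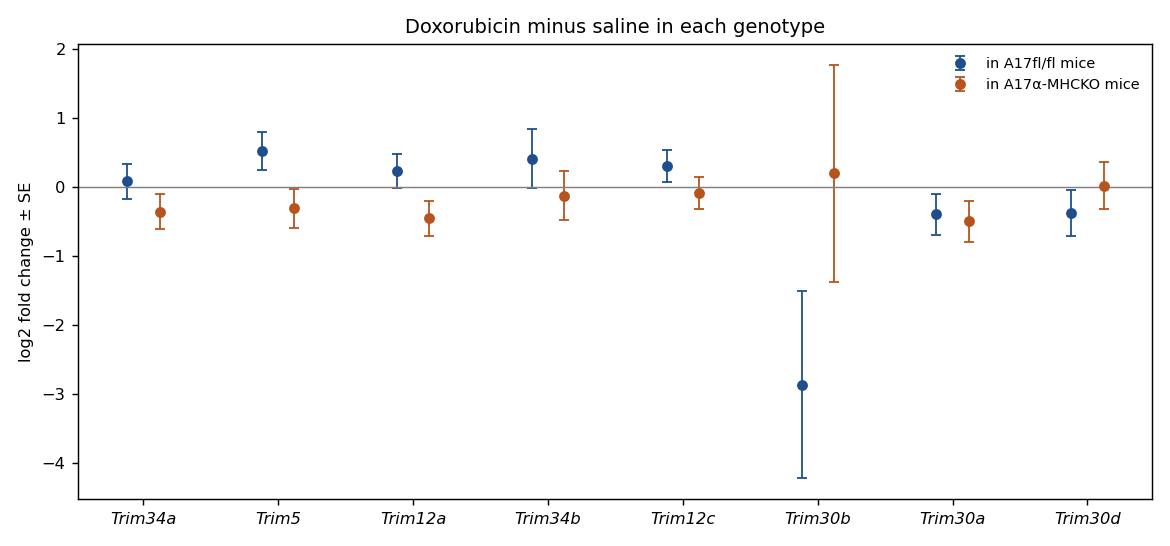
Log2 fold change of doxorubicin against saline with its SE for the 8 tested genes, in A17fl/fl mice (blue) and A17α-MHCKO mice (orange), in chromosomal order. Trim5 lies at 0.53 in A17fl/fl and -0.31 in A17α-MHCKO mice, and 0 genes passed the adjusted test in either genotype.

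Other interferon-stimulated genes and TRIM genes were counted beside the cluster. Of 39 interferon-stimulated genes tested, 0 passed the adjusted test for doxorubicin or the interaction by edgeR. At an unadjusted p under 0.05, 8 were higher and 0 lower after doxorubicin in A17fl/fl mice (background 10.7% in either direction). In A17α-MHCKO mice 0 were higher and 3 lower (6.42%), and in the interaction 0 were higher and 15 lower (5.99%). These backgrounds also count either direction. The median of the interaction was -0.74 against 0.06 for all genes. After saline, 20 of the 39 were higher in knockout than in floxed libraries without overlap, beside 10.9% of all genes apart in either direction, and after doxorubicin 0 of 39 were. Their summed CPM was 1176 to 1476 in A17α-MHCKO + NS, 545 to 1100 in A17fl/fl + NS, 870 to 1401 in A17fl/fl + DOX and 780 to 1484 in A17α-MHCKO + DOX. Oas2, a sensor of double-stranded RNA, had the smallest p over both genotypes, with a log2 fold change of -0.58 (SE 0.20) and an adjusted p of 0.381 by edgeR.

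In bulk tissue, the marker sums of several cell types also varied between groups and libraries. Whether they moved with the interferon-stimulated genes was not tested. The summed CPM of 8 T and NK cell markers was 1.79 to 6.14 in A17fl/fl + NS, 8.76 to 11.9 in A17fl/fl + DOX, 6.80 to 14.3 in A17α-MHCKO + NS and 4.72 to 13.5 in A17α-MHCKO + DOX. The lowest, 1.79, was replicate 1 of A17fl/fl + NS. Cd3e was at 0 in 1 of the 12 libraries. The 6 endothelial markers summed to 1134 to 1314 in A17fl/fl + NS, 1346 to 1551 in A17fl/fl + DOX, 1387 to 1509 in A17α-MHCKO + NS and 1188 to 1481 in A17α-MHCKO + DOX. The 8 ventricular cardiomyocyte markers summed to 17930 to 38900 CPM in A17fl/fl + NS and 41360 to 44880 in A17fl/fl + DOX, and to 27890 to 35150 in A17α-MHCKO + NS and 39490 to 44250 in A17α-MHCKO + DOX, so the sums after doxorubicin were above those after saline in both genotypes. The 4 atrial markers summed to 332.2 to 6972 CPM in A17fl/fl + NS and 1676 to 4744 in A17fl/fl + DOX. In A17α-MHCKO mice they summed to 3864 to 8048 after saline and 1803 to 3990 after doxorubicin. The part of these cells in the levels of the cluster genes and in their doxorubicin values was not tested.

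Among 21 other TRIM genes with immune or antiviral roles, 0 passed the adjusted test for doxorubicin over both genotypes, and 1 was higher and 3 were lower at an unadjusted p under 0.05 (background 10.7% in either direction). Trim62 had a log2 fold change of -0.55 (adjusted p = 0.312 by edgeR), Trim27 of -0.53, Trim21 of 0.38 and Trim28 of -0.17. Between the genotypes 0 of these 21 were higher and 0 lower without overlap over both treatments (0.335% of all genes), with a median log2 fold change of 0.00. After saline 3 were higher and 1 lower without overlap (10.9% of all genes), and after doxorubicin 0 were higher and 1 lower (14.1%). A list of 6 TRIM genes drawn up for striated muscle held Trim54, Trim55, Trim63, Trim72, Trim7 and Trim24. It also gave 0 adjusted calls. Trim72, a membrane repair gene, was at 0.39, Trim55, a sarcomeric gene, at 0.42 and Trim63, a muscle ubiquitin ligase, at -0.34. At an unadjusted p under 0.05, 2 of the 6 were higher and 0 lower (background 10.7% in either direction). The cardiomyocyte marker sums given above moved with doxorubicin too, and their part in these values was not tested. Of 28 genes of interferon signalling and sensing, 0 passed the adjusted test and 4 were lower at an unadjusted p under 0.05 (background 10.7% in either direction), among them Jak1, a kinase of the interferon receptors, at -0.40 (SE 0.11, adjusted p = 0.301 by edgeR).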

How the data were processed

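Counts and FPKM were deposited by the authors for 53465 genes in 12 libraries, as whole-number fragment counts without normalization and as FPKM scaled by gene length and library total. According to the paper, stranded paired-end mRNA libraries were counted with StringTie. The submitters' processing notes name GRCm39, HISAT2, SAMtools 1.3.1, CASAVA 1.8 and edgeR, and their settings, the strand option included, are not given in the sources used here. Positions were taken by gene ID from GENCODE M21 (GRCm38), which held 53274 of the IDs. Fragments of near-identical copies may be divided in ways these sources do not settle. Every column was matched to a library, and 0 columns were left unused.

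The main tests ran in edgeR 4.0.16 under R 4.3.3: filterByExpr (16101 genes), TMM, and glmQLFit with 4 group means, followed by glmQLFTest with Benjamini-Hochberg adjustment over all tested genes. The code was tested on simulated data. Approximate standard errors were derived from each fold change and its F statistic. CPM are TMM-scaled. Libraries do not overlap when every value of one group exceeds every value of the other. The exact permutation test used log2 of CPM plus 0.5. Depth was 15950717 to 21725076 fragments per library, which leaves genes near 1 CPM imprecise. No batch is given in the labels, and p-values measure the spread between mice.

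All 9 members are named, with the most similar genes by correlation, the 10 nearest tested neighbours on each side and up to 4 genes per list by the smallest p. The members and lists were chosen with earlier results of these data known. Alternatives were DESeq2 1.42.0, RLE and upper-quartile scaling, other filters, the groups compared alone, a replicate block and each library left out. For the genotypes over both treatments, the log2 ratio of mean FPKM with a pseudocount of 0.1 was a further alternative, without a test. Same-numbered libraries correlated in their deviations from the group means by -0.1045 to 0.2189, with 3 of 18 pairs over 0.1, so the numbers were not taken as pairs.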

Additional observations from a re-analysis of the deposited data

Results flagged for a closer look

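In the floxed libraries, Trim30b of A17fl/fl + NS replicate 1 lay far from the others, at 11.7 CPM with the nearest at 0.932 CPM. The gap was 0.925 of the whole range of these 6 libraries, over the limit of Dixon's test. In the knockout libraries, Trim30c of A17α-MHCKO + NS replicate 3 was at 0.639 CPM with the nearest at 0.302 CPM, a gap of 0.651 of the range, and rests on 11 fragments. There were 18 sets of 6 libraries examined, and chance alone would single out about 1 in 20.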

How the results depend on the processing

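For doxorubicin and the interaction, 0 cluster genes were called under each scaling, filter, DESeq2 (where 1 adjusted p in A17α-MHCKO was not given), the groups alone and each library left out (range 0 to 0). With a replicate block the calls were also 0, and the genotypes did not overlap for 2 members over both treatments and 3 in each treatment, as without it. It changed no other call. With at least 10 counts in every library, which removes Trim34b and Trim30b, 1 member was without overlap and 0 had an absolute log2 fold change over 1. Leaving out 1 library gave 2 to 2 members without overlap over both treatments, 1 to 2 with an absolute log2 fold change over 1 (1 without A17fl/fl + NS replicate 1), 3 to 5 without overlap after saline (5 without A17fl/fl + NS replicate 2) and 3 to 5 after doxorubicin (5 without A17α-MHCKO + DOX replicate 3). Of these doxorubicin and interaction values, none past the test, some turned sign when a library was left out: Trim34b (-0.0683 to 0.249) and Trim30b (-1.75 to 0.39) for doxorubicin over both genotypes, Trim34a (-0.15 to 0.23) and Trim30b (-3.45 to 0.58) in A17fl/fl, Trim34b (-0.553 to 0.0605), Trim12c (-0.21 to 0.0894), Trim30b (-0.64 to 0.64) and Trim30d (-0.21 to 0.19) in A17α-MHCKO, and Trim30a (-0.49 to 0.14) and Trim30b (-0.38 to 3.64) in the interaction. Over all genes, calls for doxorubicin ranged from 0 to 73 over both genotypes, 0 to 391 in A17fl/fl and 0 to 1 in A17α-MHCKO, and 0 to 81 for the interaction, with 73, 391 and 81 without A17fl/fl + NS replicate 2, and DESeq2 gave 176, 151, 41 and 21. Genotype values near 0 of Trim30a, of Trim34a after saline and of Trim12c after doxorubicin also turned. The causes were not tested. Depth limits Trim34b in floxed libraries, Trim30b and Trim30c.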
